A study of Mus musculus with 6 samples.

Results

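The genes described here serve the uptake, transport, storage and release of iron, or the making and breakdown of haem. The 10 members were chosen by name: Tfrc, Slc11a2, Steap3, Slc25a37, Slc25a38, Fth1, Ftl1, Slc40a1, Hmox1 and Ncoa4. All 10 were found among the 53801 gene entries of the count table, and 9 had enough reads to be tested. RNA was sequenced from mouse fetal liver cells taken between E12.5 and E13.5, from B6J mice of the Fezh/J stock in which a CAG promoter drives Cas9 and EGFP from the ROSA26 locus. Every library came from cells with a guide against Gata1 (sgGata1) and a miR-125b transgene, and the titles carry the name Gata1s, a shortened GATA1, the erythroid and megakaryocyte transcription factor. The 3 libraries of the Arid3a-FLAG group carried a doxycycline-inducible Arid3a-FLAG construct, and the 3 libraries of the LUC group an inducible construct called LUC. Both groups had doxycycline at 1 μg/mL for 48 h, so no library here lacks the guide, the microRNA or the drug. Whether the replicates were separate animals or cultures is not in the labels. The p-values therefore describe the variation among these libraries, and it may be technical.

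Cells take up iron chiefly as transferrin, which binds the transferrin receptor and enters endosomes, where a ferrireductase reduces the iron and a divalent metal transporter carries it to the cytosol. From there iron goes to mitochondria for haem and iron-sulfur clusters, is stored inside the ferritin shell, or leaves through ferroportin. Iron regulatory proteins bind hairpins called iron-responsive elements: bound in a 5′ UTR they block translation, and bound in a 3′ UTR they stabilise the transcript. Erythroid cells are the main users of iron in fetal liver, and macrophages recycle it.

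Total counts ran from 15730908 to 17014650 in the Arid3a-FLAG libraries and from 16605860 to 18249053 in the LUC libraries. The construct entry had 2758 to 3348 counts in the Arid3a-FLAG libraries and 0 in each LUC library, as labelled. LUC library 2 stood apart on the second principal component of log2 expression (24.0% of the variance), and it was the lowest or the highest of the 6 libraries for 7 of the 9 tested members. Over all tested genes it was the highest in 31.3% and the lowest in 25.8%. Levels are given in CPM, counts scaled to library size with TMM factors. Of 11 hepatocyte markers 5 were at 0 in all libraries, and 1, the fetal gene Afp, was high enough to be tested. Afp had 15.7 to 19.7 CPM in Arid3a-FLAG libraries and 18.8 to 25.9 CPM in LUC libraries, nearly the whole sum of its list.

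Among the members, Steap3 alone passed the test. It rose 1.48-fold with Arid3a-FLAG, so 1 of 9 tested members was higher and 0 were lower in edgeR's quasi-likelihood test at an adjusted p under 0.05. Over all 13631 tested genes 3.43% were higher and 3.87% lower. Before adjustment, 3 members had a p under 0.05 on the higher side and 0 on the lower side. DESeq2 called 2 members higher and 0 lower, against 5.66% and 5.8% of all genes, and limma-voom likewise 2 and 0, against 3.57% and 3.85%; both added Ncoa4. With no filter on low counts Steap3, Tfrc and Ncoa4 were called higher and Hmox1 lower, against 3.63% and 4.5% of all genes. In 3 members every Arid3a-FLAG library was above every LUC library, and in 0 members below; for all tested genes these shares were 16.6% and 16.5%. The median log2 fold change (Arid3a-FLAG over LUC) was 0.15 over the 9 members and -0.03 over all tested genes. Without LUC library 2, 2 members were higher and 1 lower, against 8.52% and 7.83% of all genes. Without LUC library 3, 2 were higher and 0 lower, against 4.42% and 3.16%. In the remaining fits with a library left out, Steap3 was the single call. All genes gave 0.821% higher and 0.843% lower without Arid3a-FLAG library 1, and 0.941% and 1.17% without Arid3a-FLAG library 2. They gave 1.5% and 2.55% without Arid3a-FLAG library 3, and 1.36% and 1.72% without LUC library 1.

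**Figure D1:**
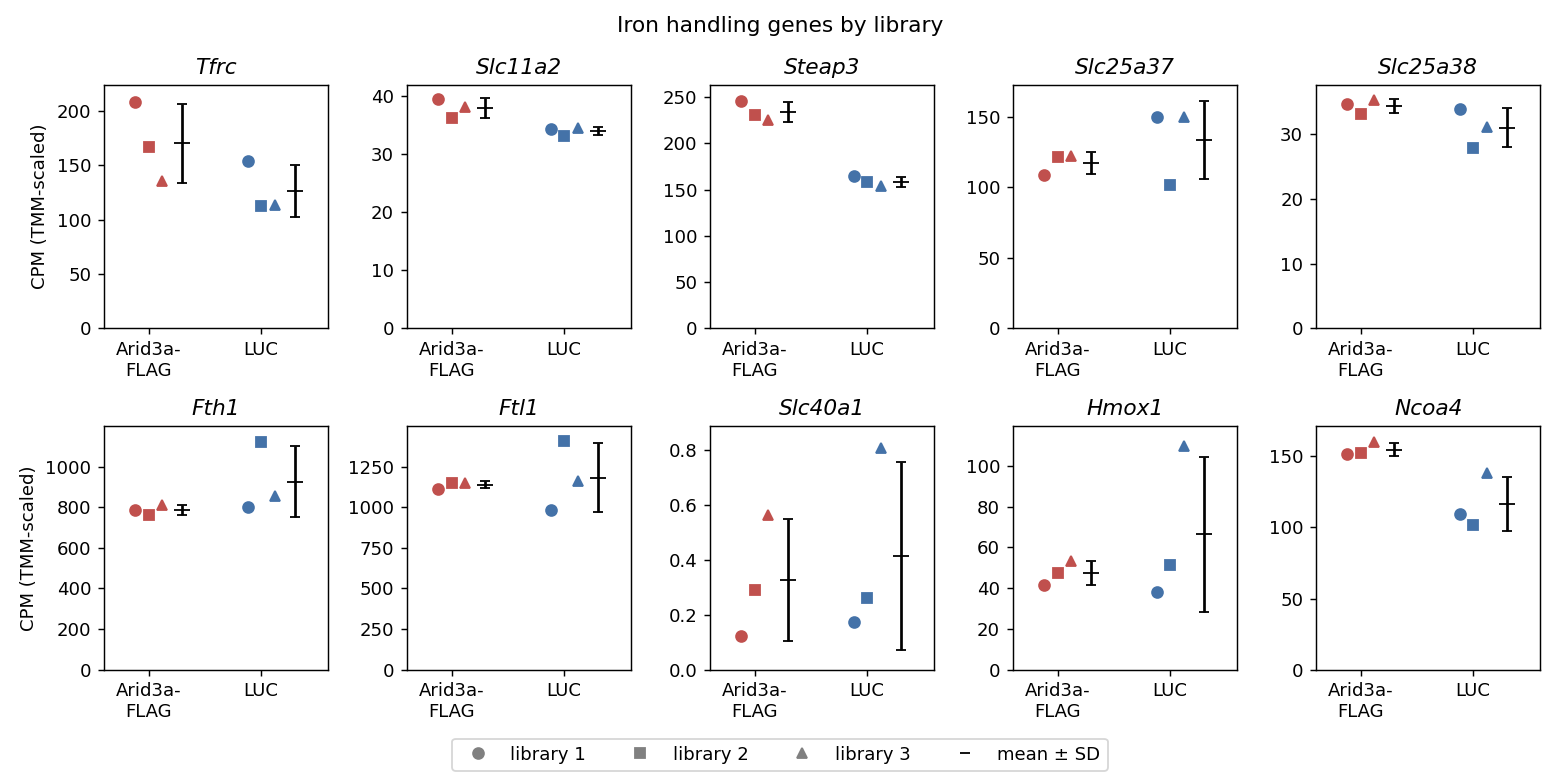
CPM (vertical axis, each panel from 0) of the 10 members in each library, with the mean and SD of 3 libraries beside them. The Arid3a-FLAG and LUC libraries of Steap3 are well apart, LUC library 2 is the highest for Fth1 and Ftl1, and LUC library 3 is the highest for Hmox1.

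Of the members, 4 held the pattern of an iron-responsive element. The search was for the letters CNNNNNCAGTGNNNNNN in which the 5 bases on each side of the CAGTGN loop could all pair. They were Fth1, Ftl1 and Slc40a1 in the 5′ UTR and Tfrc in the 3′ UTR. The search covered the UTRs of protein-coding transcripts of 21875 genes in GENCODE M21 and found the pattern in 0.128% of genes in the 5′ UTR and 0.581% in the 3′ UTR. The elements are printed because they are what these otherwise unlike transcripts share. Each is 29 bases, 5′ to 3′ on the transcript strand, with the loop in capitals.
Fth1: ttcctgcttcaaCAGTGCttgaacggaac
Ftl1: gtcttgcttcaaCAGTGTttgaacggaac
Slc40a1: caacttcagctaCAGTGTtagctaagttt
Tfrc element 1: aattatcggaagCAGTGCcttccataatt
Tfrc element 2: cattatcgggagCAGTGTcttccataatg
Tfrc element 3: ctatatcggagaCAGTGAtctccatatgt
Tfrc element 4: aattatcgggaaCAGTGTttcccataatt
In mm10 they lie at chr19:9982732-9982760 (plus strand), chr7:45459779-45459807 (minus strand), chr1:45925465-45925493 (minus strand) and, on the plus strand of chromosome 16, at chr16:32631219-32631247, chr16:32631598-32631626, chr16:32631663-32631691 and chr16:32631710-32631738. The pattern was not found in these letters in the UTRs of the other 6 members. An element with other letters or an unpaired base in its stem would be missed. The search therefore does not show that those members lack an element, or that Tfrc holds only 4. Of 20 tested genes with the pattern in the 5′ UTR, 0 were higher and 3 lower (median log2 fold change -0.08). Of 92 with it in the 3′ UTR, 7 were higher and 2 lower (median 0.11). Over all tested genes, 3.43% were higher and 3.87% lower, with a median of -0.03. None of the 4 members with the pattern passed the test: Slc40a1 was too low to be tested, and the other 3 are given below.

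Tfrc (ENSMUSG00000022797, chromosome 16, 32608920 to 32632794, plus strand) encodes transferrin receptor 1, the main route of iron into erythroid precursors. It stood at 208.0, 166.5 and 135.8 CPM in the Arid3a-FLAG libraries and at 153.7, 112.3 and 113.2 CPM in the LUC libraries. LUC library 1 lay above Arid3a-FLAG library 3, so the groups overlapped. On the log2 scale it differed by 0.43 (SE 0.16, 95% interval 0.07 to 0.79), with an adjusted p of 0.134. It ran from 0.26 without Arid3a-FLAG library 1 to 0.62 without LUC library 1, and none of the 6 fits that left out a library called it. With no filter on low counts the adjusted p was 0.0015.

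Steap3 (ENSMUSG00000026389, chromosome 1, 120190757 to 120272705, minus strand) encodes the endosomal ferrireductase that works beside the transferrin receptor in erythroid cells. Its level was 245.8, 230.2 and 225.5 CPM in the Arid3a-FLAG libraries, against 164.3, 157.7 and 153.3 CPM in the LUC libraries. The lowest Arid3a-FLAG library was well above the highest LUC library. The means were 233.8 ± 10.6 CPM and 158.4 ± 5.53 CPM (SD, n = 3 each). That is 0.56 on the log2 scale (SE 0.09, 95% interval 0.37 to 0.75, adjusted p = 0.0044). Steap3 passed in all 6 fits with a library left out, with log2 fold changes of 0.53 to 0.61 and an adjusted p of at most 0.045, and under each of the other 9 settings for single genes.

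RefSeq (GRCm38.p6) gave promoter windows for 6 of the 10 members, each running from 250 bases before to 50 bases after a start site, 13 windows in all. They were searched on both strands for the motif known for binding by blood factors such as GATA1, AGATAA, for the core of the antioxidant response element, TGACNNNGC, and for ATTAAA, an AT-rich motif. The first, AGATAA, was in 1 of the 13 windows, against 11.2% of all 32851 windows, TGACNNNGC in 2 against 12.4%, and ATTAAA in 2 against 13.9%. The window with AGATAA belonged to the start of Steap3 at chr1:120271031-120271330 (minus strand) and is printed because Steap3 was the member that changed. Its match, on the opposite strand, is in capitals.
Steap3: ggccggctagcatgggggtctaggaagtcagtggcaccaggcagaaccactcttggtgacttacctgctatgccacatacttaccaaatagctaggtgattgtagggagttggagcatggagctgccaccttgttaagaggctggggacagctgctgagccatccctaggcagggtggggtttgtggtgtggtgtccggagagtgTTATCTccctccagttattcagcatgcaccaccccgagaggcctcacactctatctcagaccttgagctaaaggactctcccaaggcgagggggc
The other 3 Steap3 windows held none of the 3 motifs. The counts are per gene and do not show which start was used.

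Genes of at least 20 CPM were ranked by how closely their log2 CPM followed Steap3 over the 6 libraries. The closest of 7731 were Prkaa1, the catalytic subunit of AMP-activated kinase (Pearson r = 0.998), Cxxc1 (0.993), Homer2 (0.993), Cand2 (0.992) and Tarsl2 (0.992). These libraries share the 2 groups, so a gene that differed between groups by a steady amount scores high. The r is a description of 6 points.

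Slc11a2 (ENSMUSG00000023030, chromosome 15, 100387898 to 100425072, minus strand) encodes DMT1, the transporter that carries iron out of the endosome. It stood at 39.5, 36.2 and 38.2 CPM with Arid3a-FLAG and at 34.3, 33.2 and 34.4 CPM with LUC. The groups did not overlap, but they were close. Its log2 fold change was 0.16 (SE 0.09, 95% interval -0.05 to 0.36, adjusted p = 0.309). Its exons share 402 bases with Gm5475 on the other strand, so its reads may include some of that gene.

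**Figure D2:**
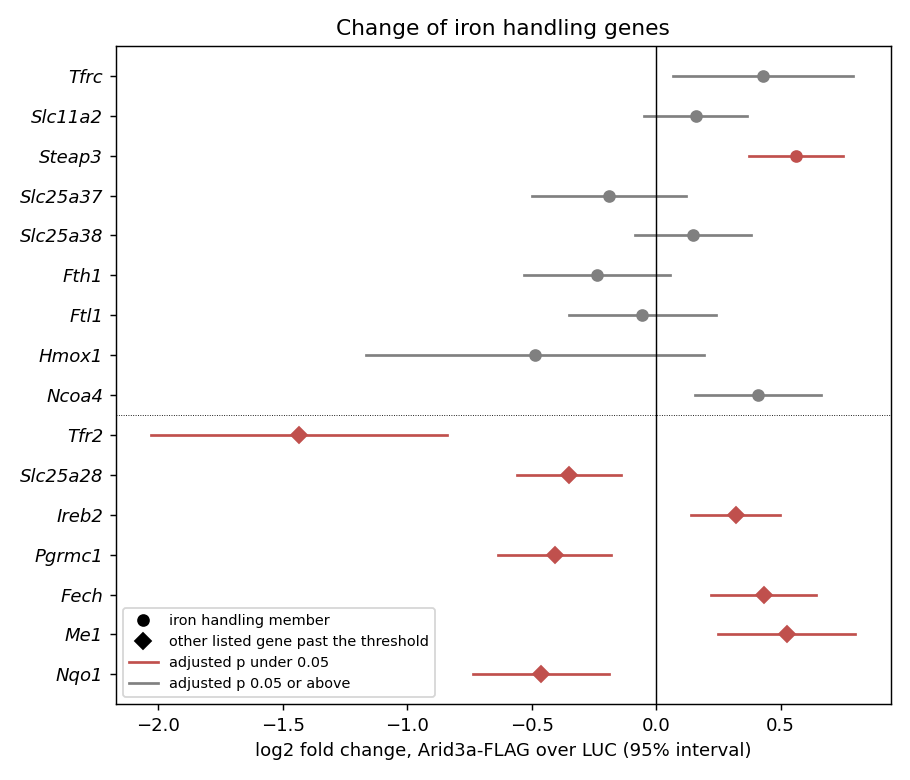
Log2 fold change (horizontal axis, Arid3a-FLAG over LUC) with 95% intervals for the 9 tested members (circles) and the 7 other listed genes past the threshold (diamonds). Steap3 is the member whose adjusted p is under 0.05, and Tfr2 has the largest change of the genes drawn.

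The mitochondrial carriers did not pass. Slc25a37 (ENSMUSG00000034248, chromosome 14, 69241848 to 69285112, minus strand) encodes mitoferrin 1, which brings iron into mitochondria of erythroid cells. Its level was 108.5, 121.3 and 122.6 CPM with Arid3a-FLAG and 149.9, 102.0 and 149.7 CPM with LUC. LUC library 2 was below all 3 Arid3a-FLAG libraries, and the other 2 LUC libraries were above them. The log2 fold change was -0.19 (SE 0.14, 95% interval -0.50 to 0.12, adjusted p = 0.422), and without LUC library 2 it was -0.34 with an adjusted p of 0.0077. Its exons share 381 and 92 bases with Gm31748 and Gm27223 on the other strand. Without LUC library 1 or 3 it was -0.08. Slc25a38 (ENSMUSG00000032519, chromosome 9, 120110374 to 120124504, plus strand), a carrier of glycine for haem synthesis, had 34.7, 33.2 and 35.3 CPM with Arid3a-FLAG and 33.9, 27.9 and 31.2 CPM with LUC. These groups overlapped, and the log2 difference was 0.15 (SE 0.11, 95% interval -0.08 to 0.38, adjusted p = 0.405).

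The ferritin subunits were the most abundant members. Per kilobase of exon, Ftl1 had 849.0 ± 15.8 CPM with Arid3a-FLAG and 881.9 ± 160 CPM with LUC, and Fth1 had 226.6 ± 6.77 and 267.1 ± 50.03 CPM (SD, n = 3 each). Steap3 followed at 40.9 ± 1.86 and 27.7 ± 0.968 CPM per kilobase. Tfrc (27.5 ± 5.86 and 20.4 ± 3.83), Hmox1 (27.1 ± 3.27 and 37.9 ± 21.8) and Slc25a37 (19.5 ± 1.30 and 22.2 ± 4.58) came next; in the LUC libraries these 3 and Steap3 lay within each other's spread or close to it, with Hmox1 the most variable. Ncoa4 (16.5 ± 0.486 and 12.4 ± 2.04), Slc25a38 (12.51 ± 0.398 and 11.3 ± 1.10) and Slc11a2 (5.97 ± 0.263 and 5.35 ± 0.111) were lower, and Slc40a1 was lowest at 0.0362 ± 0.0247 and 0.0460 ± 0.0383. Exon lengths are summed over all annotated transcripts of a gene, so these levels are rough.

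Fth1 (ENSMUSG00000024661, chromosome 19, 9980598 to 9985098, plus strand) encodes the ferritin heavy chain, which oxidises iron for storage. It had 787.4, 762.1 and 809.0 CPM with Arid3a-FLAG and 799.1, 1124 and 856.4 CPM with LUC. LUC library 2 was the highest, and LUC library 1 fell within the Arid3a-FLAG range. The log2 fold change was -0.24 (SE 0.13, 95% interval -0.53 to 0.06, adjusted p = 0.286), and -0.06 without LUC library 2. Ftl1 (ENSMUSG00000050708, chromosome 7, 45457944 to 45459884, minus strand), the light chain that helps form the iron core, had 1113, 1149 and 1151 CPM with Arid3a-FLAG and 980.4, 1406 and 1159 CPM with LUC. The LUC libraries lay on both sides of the Arid3a-FLAG libraries. Its log2 fold change was -0.05 (SE 0.13, 95% interval -0.35 to 0.24, adjusted p = 0.828), and 0.10 without LUC library 2.

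The ferritin genes have processed copies in the genome, and the labels do not state how reads common to them were assigned. Ftl1-ps1 had 1230 to 1344 counts with Arid3a-FLAG and 1243 to 1590 with LUC, whereas the copies Fth-ps2 and Fth-ps3 had at most 2 in any library. Ftl1 also shares 355 exon bases with Gm10252 on the other strand, which had at most 20 counts. On its own strand, Ftl1 shares 109 exon bases with Gm22133. Any shared reads that were left out would appear under no gene. The uncertainty of Fth1 and Ftl1 therefore has no known bound.

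Within each library the ratio of Fth1 to Ftl1, both per kilobase, was lower with Arid3a-FLAG. It was 0.273, 0.256 and 0.271 in the Arid3a-FLAG libraries and 0.315, 0.309 and 0.286 in the LUC libraries. All Arid3a-FLAG libraries were below all LUC libraries, although neither gene alone passed. The geometric means were 0.267 and 0.303, a log2 difference of -0.18. Without division by exon length they were 0.691 and 0.784, with the same log2 difference. The level of the ratio therefore depends on the exon lengths used. An exact two-sided permutation test gave p = 0.1, which is the smallest that 3 against 3 libraries allow. With the copies' counts added the difference was -0.18 as well. That sum holds only reads that were counted, so it cannot show the effect of shared reads left out. The ratio was chosen after its values were seen.

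**Figure D3:**
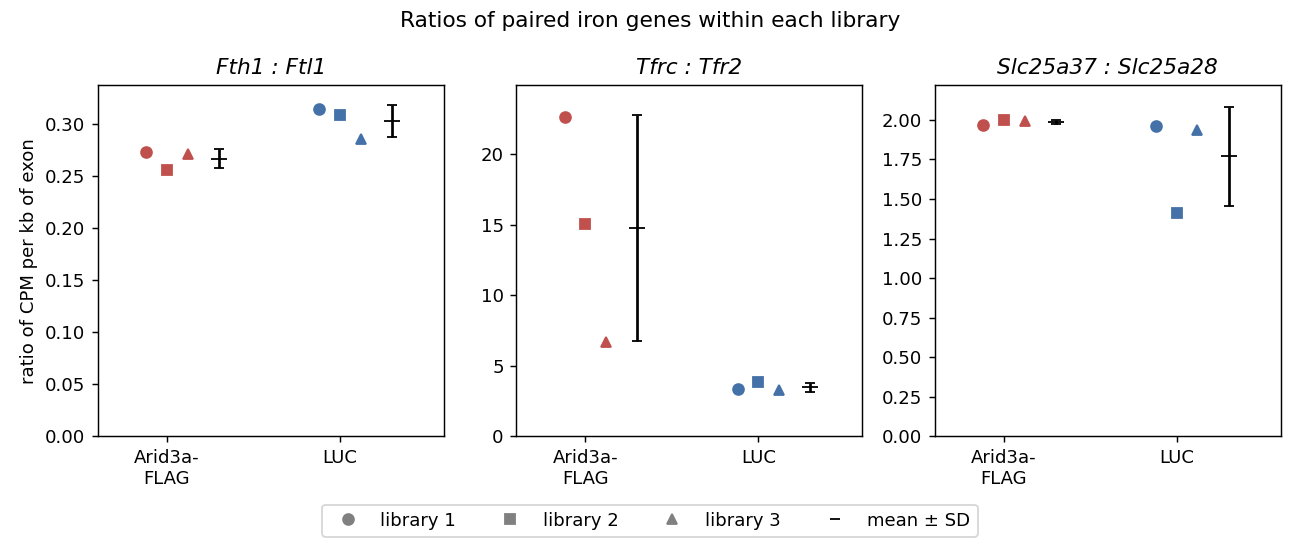
Ratio of CPM per kilobase of exon (vertical axis, from 0) for 3 pairs of genes in each library, with mean and SD of 3 libraries. The Fth1 to Ftl1 ratio lies at 0.256 to 0.273 in the Arid3a-FLAG libraries and 0.286 to 0.315 in the LUC libraries, and the Tfrc to Tfr2 ratio ranges from 6.66 to 22.6 and from 3.28 to 3.87. The Slc25a37 to Slc25a28 ratio is 1.969 to 1.997 in the Arid3a-FLAG libraries. It is 1.963 and 1.936 in LUC libraries 1 and 3, close to these, and 1.41 in LUC library 2.

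Ncoa4 (ENSMUSG00000056234, chromosome 14, 32159865 to 32179855, plus strand) encodes the receptor that delivers ferritin to lysosomes, which frees its iron. It stood at 151.8, 152.4 and 160.0 CPM in the Arid3a-FLAG libraries and 109.3, 101.8 and 138.0 CPM in the LUC libraries. All Arid3a-FLAG libraries were above all LUC libraries, and LUC library 3 was the nearest. The log2 fold change was 0.41 (SE 0.11, 95% interval 0.16 to 0.66), with an adjusted p of 0.056 that narrowly missed the threshold. It passed without LUC library 2 (0.34, adjusted p = 0.025) and without LUC library 3 (0.58, adjusted p = 0.012), and with DESeq2 (adjusted p = 0.017) and limma-voom (0.0496). It did not pass in the other 4 fits that left out a library, where the adjusted p reached 0.175.

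RNA of the iron exporter gene was barely detected. Slc40a1 (ENSMUSG00000025993, chromosome 1, 45908068 to 45926523, minus strand) encodes ferroportin, the cellular iron exporter. Its counts were 2, 5 and 9 with Arid3a-FLAG and 3, 4 and 15 with LUC, too few to pass the filter. The groups overlapped widely. Fitted with no filter, it gave a log2 fold change of -0.36 (adjusted p = 0.805), and a difference was not detectable at this depth.

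Hmox1 (ENSMUSG00000005413, chromosome 8, 75093621 to 75100589, plus strand) encodes haem oxygenase 1, which breaks haem down and releases its iron. It had 41.7, 47.6 and 53.1 CPM in the Arid3a-FLAG libraries and 37.9, 51.4 and 109.8 CPM in the LUC libraries. LUC library 3 stood 2.46-fold above the mean of the other LUC libraries, a ratio that 42 of all tested genes exceeded, while LUC libraries 1 and 2 were close to the Arid3a-FLAG range. Its log2 fold change was -0.49 (SE 0.31, 95% interval -1.17 to 0.19, adjusted p = 0.344), and without LUC library 3 it was 0.12. With no filter on low counts Hmox1 was lower with an adjusted p of 0.0016. Of 17 genes of the NRF2 and BACH1 pathway, which controls Hmox1, 12 were higher in LUC library 3 than in the other LUC libraries, against 29.9% of all tested genes. This was counted after the values were seen. The count leaves the Arid3a-FLAG libraries aside. In those, Slc7a11 had 21.14 to 24.89 CPM against 21.08 in LUC library 3, and Gclm 276.1 to 293.8 against 262.4. Srxn1 had 81.7 to 92.7 CPM against 88.5. Others of the list were highest of all libraries in LUC library 3, as Hmox1 was, such as Nqo1 (20.2 to 21.8 CPM against 31.6).

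**Figure D4:**
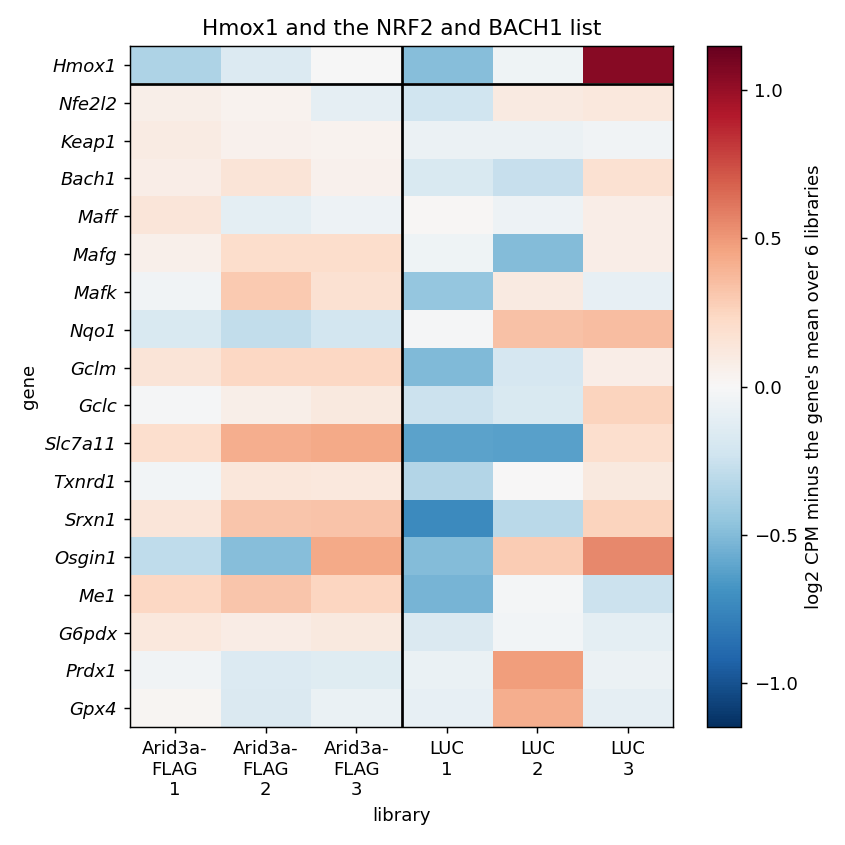
Colour shows log2 CPM minus the gene's mean over the 6 libraries for Hmox1 (top) and the 17 genes of the NRF2 and BACH1 list; columns are libraries. Hmox1 is highest in LUC library 3, at 109.8 CPM, and Slc7a11, Srxn1 and Gclm are higher there than in LUC libraries 1 and 2. Slc7a11 and Gclm are not higher there than in the Arid3a-FLAG libraries, and Srxn1 lies within the Arid3a-FLAG range.

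Iron recycling macrophages express Slc40a1 and Hmox1, and their markers were scarce. The counts of markers that follow stand beside 3.43% higher and 3.87% lower among all tested genes in edgeR. For DESeq2 the shares of all genes were 5.66% and 5.8%, and for limma-voom 3.57% and 3.85%. No such share was taken at an unadjusted p. Of 16 macrophage markers, 10 were too low to be tested, 1 rose (Csf1r, a receptor macrophages need) and 0 fell (0 at an unadjusted p under 0.05; DESeq2 and limma-voom also called 0). Vcam1, Marco and Spic had 0 counts in all libraries, and the list summed to 28.6 to 35.7 CPM with Arid3a-FLAG and 20.1 to 23.8 CPM with LUC. Erythroid markers summed to 587.0 to 718.7 CPM with Arid3a-FLAG and 438.2 to 454.3 CPM with LUC. Of 13 tested, 5 rose and 1 fell, with 6 and 2 by DESeq2 and 5 and 1 by limma-voom; Slc4a1, the band 3 anion exchanger, was at 0 throughout. Of 13 megakaryocyte markers 5 rose (Thbs1 by 2.58, Itgb3 by 0.97, Gp1bb by 0.82, Gp9 by 0.69 and Gp5 by 0.63 in log2 units) and 1, Ppbp, fell by 1.01; DESeq2 and limma-voom gave the same counts. These genes are named after their values were seen. Their summed level, most of it Pf4 and Itga2b, was 7224 to 7761 CPM with Arid3a-FLAG and 6713 to 8444 CPM with LUC. Mast cell markers summed to 881.4 to 1535 CPM with Arid3a-FLAG and 1938 to 2253 CPM with LUC, and of 9 tested 0 rose (0 at an unadjusted p under 0.05, and 0 with DESeq2 and limma-voom) and 3 fell (6 at an unadjusted p under 0.05, and 5 with DESeq2 and with limma-voom). The part of these shifts in the iron genes was not tested. In bulk RNA fewer cells of a type and less RNA per cell cannot be told apart.

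Of 77 tested genes on 6 further lists of iron and haem genes, 7 passed (9.09%), near the 7.29% of all genes that did. The counts of each list below stand beside 3.43% higher and 3.87% lower among all tested genes. With DESeq2 these shares were 5.66% and 5.8%, and with limma-voom 3.57% and 3.85%. No share of all genes was taken at an unadjusted p. Among the 7 that passed, Tfr2 had the largest change. Tfr2, transferrin receptor 2, an iron sensor of liver and erythroid cells, had 6.45, 7.77 and 14.3 CPM with Arid3a-FLAG and 32.3, 20.4 and 24.2 CPM with LUC. With an SE of 0.27 it fell by 1.43 in log2 units (adjusted p = 0.012), a call lost without Arid3a-FLAG library 1 (0.062), Arid3a-FLAG library 2 (0.058) or LUC library 1 (0.056). The ratio of Tfrc to Tfr2 per kilobase was 22.6, 15.0 and 6.66 with Arid3a-FLAG and 3.34, 3.87 and 3.28 with LUC. The geometric means differed 3.77-fold (exact permutation p = 0.1, the smallest possible). The fall of Tfr2, 1.43, made up most of this log2 difference of 1.915. Tfr2 was already called with groups that did not overlap, so the ratio is not separate support for a change in Tfrc. Slc25a28, the mitoferrin of other tissues, had 34.3, 37.8 and 38.3 CPM with Arid3a-FLAG and 47.6, 45.1 and 48.1 CPM with LUC, and fell by 0.35 (SE 0.09, adjusted p = 0.049). Its call held in 1 of 6 fits with a library left out and in 3 of 9 other settings, and limma-voom (0.0502) and RLE factors (0.055) were among those that lost it. On this list of transport and reduction genes 0 of 12 tested rose (1 at an unadjusted p under 0.05, and 0 with DESeq2 and limma-voom). On the lower side 2 fell (3 at an unadjusted p under 0.05, 2 with DESeq2 and 1 with limma-voom). This list also holds the hepatic iron hormone genes Hamp and Hamp2, at 0 in all libraries. Snx3, a sorting protein that recycles the transferrin receptor, was its most abundant tested gene, at 149.0 ± 2.62 CPM with Arid3a-FLAG and 178.8 ± 32.2 CPM with LUC (SD, n = 3 each).

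Among iron sensors 1 of 9 tested genes rose (3 at an unadjusted p under 0.05, and 1 with DESeq2 and with limma-voom). On the lower side 0 fell (0 at an unadjusted p under 0.05, and 0 with DESeq2 and limma-voom). The gene that rose was Ireb2, iron regulatory protein 2, which binds the elements printed above. Ireb2 had 125.8, 119.2 and 117.9 CPM with Arid3a-FLAG and 98.5, 93.9 and 98.5 CPM with LUC. The groups were apart, and the log2 difference was 0.32 (SE 0.08, adjusted p = 0.041). It passed in 2 of 6 fits with a library left out, where the adjusted p reached 0.192, and not with upper quartile factors (0.0509). Aco1, iron regulatory protein 1, named after its values were seen, had 54.9, 55.6 and 54.0 CPM with Arid3a-FLAG and 46.8, 49.3 and 47.7 CPM with LUC (log2 fold change 0.19, adjusted p = 0.185). The iron chaperone Pcbp1 was the most abundant of the list at 611.3 ± 9.15 and 610.9 ± 91.0 CPM in Arid3a-FLAG and LUC libraries (SD, n = 3 each).

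In haem transport and breakdown 0 of 10 tested genes rose (1 at an unadjusted p under 0.05, and 0 with DESeq2 and limma-voom). On the lower side there were 2 at an unadjusted p under 0.05, and 1 with DESeq2 and with limma-voom. The 1 that fell was the haem-binding membrane protein Pgrmc1. It averaged 96.4 ± 5.67 CPM with Arid3a-FLAG and 127.8 ± 14.4 CPM with LUC (SD, n = 3 each), a log2 difference of -0.41 (SE 0.10, adjusted p = 0.038, up to 0.157 with a library left out). Slc48a1, a haem transporter and the most abundant of these, had 312.6 ± 4.13 CPM with Arid3a-FLAG and 276.7 ± 30.5 CPM with LUC. In haem synthesis 1 of 10 tested genes rose (1 at an unadjusted p under 0.05, and 1 with DESeq2 and with limma-voom). On the lower side 0 fell (0 at an unadjusted p under 0.05, and 0 with DESeq2 and limma-voom). Fech, ferrochelatase, which inserts iron into the ring, averaged 60.8 ± 1.16 CPM with Arid3a-FLAG and 45.1 ± 3.77 CPM with LUC. Its log2 fold change was 0.43 (SE 0.09, adjusted p = 0.024, up to 0.126 with a library left out). Tmem14c, which carries a haem precursor into the mitochondrial matrix and was the most abundant here, had 136.5 ± 2.96 CPM with Arid3a-FLAG and 130 ± 23.1 CPM with LUC. Alas2, the erythroid enzyme that starts haem synthesis, had 0.124, 0.406 and 0.376 CPM with Arid3a-FLAG and 0.173, 0.327 and 0.431 CPM with LUC and was not tested; it is named for its role and after its values were seen.

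None of 19 tested iron-sulfur cluster genes passed in edgeR (at an unadjusted p under 0.05 there were 0 on the higher side and 2 on the lower; DESeq2 and limma-voom called 0). Leaving out LUC library 2 gave 2 higher and 1 lower calls, against 8.52% and 7.83% of all genes. The mitochondrial chaperone Hspa9 was the most abundant, at 568.4 ± 26.2 CPM with Arid3a-FLAG and 524.5 ± 50.1 CPM with LUC (SD, n = 3 each). Of 17 NRF2 and BACH1 genes, 1 rose and 1 fell, against 3.43% and 3.87% of all genes. DESeq2 called 3 higher and 1 lower, limma-voom 1 and 0, and edgeR without LUC library 2 called 4 and 1. For all genes the shares were, in the same order, 5.66% and 5.8%, 3.57% and 3.85%, and 8.52% and 7.83%. Before adjustment 5 had a p under 0.05 on the higher side and 1 on the lower. Me1, malic enzyme 1, averaged 67.8 ± 2.18 CPM with Arid3a-FLAG and 47.2 ± 8.40 CPM with LUC (SD, n = 3 each), a log2 difference of 0.52 (SE 0.12, adjusted p = 0.032, up to 0.138 with a library left out). Nqo1, a quinone reductase, averaged 21.1 ± 0.805 CPM with Arid3a-FLAG and 29.1 ± 3.99 CPM with LUC, a log2 difference of -0.46 (SE 0.12, adjusted p = 0.049, up to 0.198 with a library left out). The Nqo1 call held in 4 of 9 other settings and was lost with limma-voom (0.0589) and RLE factors (0.0529). Prdx1, a peroxiredoxin and the most abundant of the list, had 322.9 ± 13.7 CPM with Arid3a-FLAG and 384.0 ± 90.4 CPM with LUC. Over the 6 lists the number of calls was 0 without Arid3a-FLAG library 1 or 2, 1 without Arid3a-FLAG library 3, 2 without LUC library 1, 18 without LUC library 2 and 7 without LUC library 3. The shares over all genes moved too. They ran from 0.821% higher and 0.843% lower without Arid3a-FLAG library 1 to 8.52% and 7.83% without LUC library 2. Without LUC library 3 they were 4.42% and 3.16%.

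**Figure D5:**
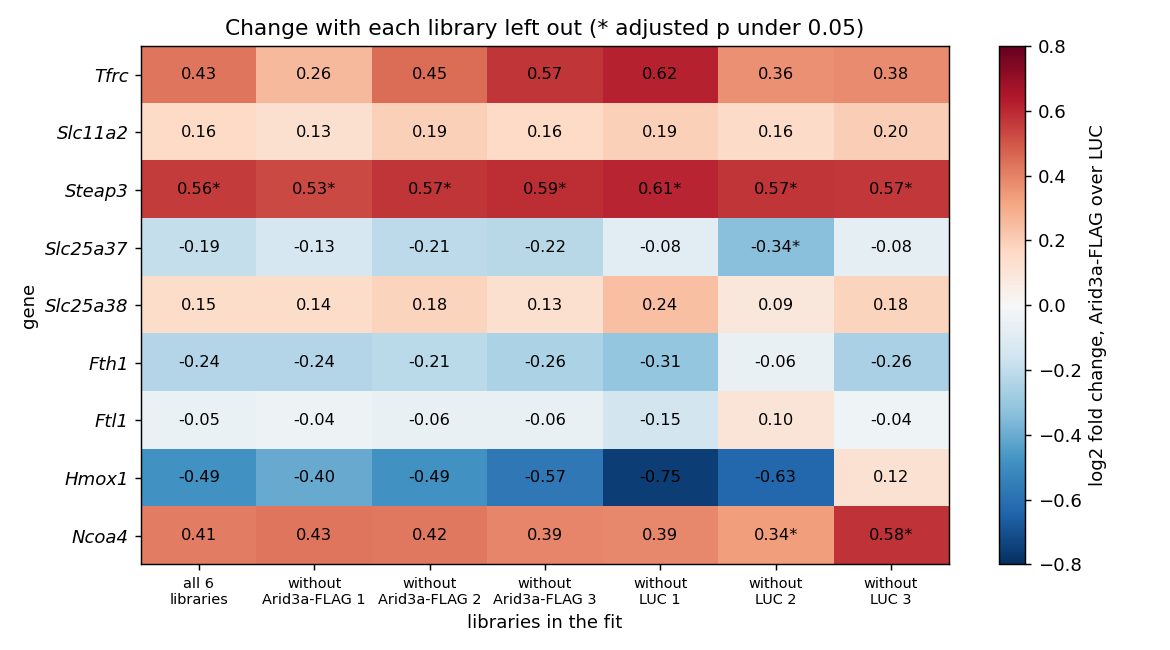
Log2 fold change (number and colour, Arid3a-FLAG over LUC) of the 9 tested members with all 6 libraries and with each library left out; an asterisk marks an adjusted p under 0.05. Steap3 is marked in every column, Ncoa4 without LUC library 2 or 3, and Slc25a37 without LUC library 2.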

How the data were processed

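The authors deposited raw read counts per gene for 6 libraries. Per the submitters' processing notes the tools were fastp, HISAT2 2.0.5 and featureCounts, with build mm10; settings, strand and the handling of multiply aligned reads are not stated there. Library sizes and tests left out the construct entry. Symbols, positions and exon lengths came from GENCODE M21 by Ensembl identifier, and 95 identifiers without a symbol took at most 0.0170% of a library. Counts were fitted in R 4.3.3 with edgeR 4.0.16 (filterByExpr, TMM, glmQLFit and glmQLFTest, group as the only term), two-sided, with Benjamini-Hochberg adjustment over 13631 genes. Where no tool is named, an adjusted p is edgeR's. Standard errors were taken as the fold change on the log2 scale over the root of F. Members and lists were chosen with earlier results of these data known. Named were all members, the genes of the 6 further lists that passed, at most 4 per direction, the most abundant of each list, and the 5 genes most like Steap3. Alternatives were RLE and upper quartile factors, other filters, DESeq2 1.42.0, limma-voom (limma 3.58.1), a replicate block, each library left out, ferritin copies added and the 20 most abundant genes left out of totals.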

Additional observations from a re-analysis of the deposited data

How the results depend on the processing

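The single member called higher was 3 with no filter on low counts (1 lower), 2 with DESeq2, 2 with limma-voom and 3 with the replicate block, and 1 to 2 with a library left out; those called lower ranged from 0 to 1. The counts over all genes were 869 higher and 1076 lower with no filter, 771 higher with DESeq2, and 125 and 137 at an adjusted p under 0.01, where 0 of the other iron pathway genes passed. With a library left out they ran from 115 to 1191 higher and from 118 to 1095 lower, and the other iron pathway calls from 0 to 18. Those calls numbered 4 with the replicate block, which called 410 genes higher and 530 lower over all. The block added calls of Tfrc (log2 fold change 0.42, adjusted p 0.0399) and Ncoa4 (0.42, 0.0445), and gave adjusted p values of 0.0779 for Slc25a28, 0.083 for Ireb2, 0.0525 for Pgrmc1 and 0.0636 for Nqo1. Same-numbered libraries of the groups did not deviate together (r of -0.103, -0.115 and 0.125), so the numbers were not taken as pairs. With a library left out, the log2 fold change of Ftl1 ran from -0.15 to 0.10 and that of Hmox1 from -0.75 to 0.12. For Steap3 the value ran from 0.53 to 0.61 and the call was kept in all 15 alternative fits. The cause of the other moves was not tested. Depth limits Slc40a1, with 16 counts over the Arid3a-FLAG libraries and 22 over the LUC libraries.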
